A study of Rattus norvegicus with 2 samples.

Results

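Circular RNAs (circRNAs) with a genomic span of at least 100 kb were examined in rat spinal cord. Span was taken from each circRNA's listed position as end minus start plus 1, and 349 of 11599 circRNAs (3.01%) met the threshold. The BCP (bone cancer pain) library came from SD rats whose tibial marrow cavity received live Walker256 mammary carcinoma cells. The sham library came from SD rats that had the same surgery with Walker256 cells boiled for 20 min. All animals were taken 21 days after surgery, with 3 animals described per group. The sources used here do not say whether their RNA was pooled, nor give sex or age. With 1 library per group nothing can be checked across replicates, and each comparison is between these 2 libraries, not between the conditions. In bulk tissue, fewer cells of a type and less RNA per cell cannot be told apart.

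A circRNA forms when the splicing machinery joins the end of a downstream exon back to the start of an upstream exon. The span is the distance on the genome between these back-splice sites, introns included, and is not the length of the circle, from which introns are usually removed. Long introns are common in genes of the nervous system, so a circle of a few exons can cover a long stretch of the genome. Abundant brain circRNAs tend to be stable, since they have no free end for exonucleases.

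The table held 113033 back-splice reads in sham and 78836 in BCP, so sham was 1.43 times as deep. The smallest count above 0 was 2 reads, and a listing at 0 can hide a circRNA that is present at low level. Intervals are 95%, exact (Clopper-Pearson), and cover counting error alone. They treat each read as its own molecule, which sequencing without molecular identifiers does not ensure. Defining tissue markers could be seen only as circRNA hosts. Mbp, the myelin basic protein gene, hosted circRNAs with 6 sham and 36 BCP reads. The neuronal genes Rbfox3 and Snap25 had 11 and 15, and 2 and 0. The astrocyte gene Slc1a2 had 5 and 3, and no circRNA of Gfap or Aqp4 was listed. The part of cell composition in the results was not tested.

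Spans of the long circRNAs ran from 100092 to 199893 bp, with a median of 129597 bp, against a median of 9111 bp for all others. Their number declined from 68 between 100 and 110 kb to 20 between 190 and 200 kb, and 0 circRNAs of the table spanned 200 kb or more. The sources used here do not say whether the caller limited the span. The circRNAs just inside the threshold were those of Stk39 (100092 bp, 8 sham and 5 BCP reads) and Ccdc148 (100114 bp, 11 and 6 reads) and a circRNA without a host name (100204 bp, 3 and 0 reads). Those just outside had spans of 99911, 99882 and 99838 bp, no host name, 2 or 3 reads in sham and 0 in BCP. The 5 widest were thinly covered, with 2 to 4 reads in BCP and 0 in sham. They included circRNAs of Dync1i1 (198122 bp), a subunit gene of the dynein motor, and of Tenm2 (197404 bp), a synaptic adhesion gene.

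Long circRNAs were thinly covered. Their median was 4 reads over both libraries, against 5 for the others, and 159 of 349 (45.6%) had 2 or 3 reads, against 35.6% of the others. Only 28 had at least 20 reads. Together they made up 1.72% of all reads in sham (1946 reads, interval 1.65 to 1.799%) and 1.47% in BCP (1161 reads, 1.39 to 1.56%). The 10 with most reads held 26.9% of the long circRNAs' sham reads and 27.1% of their BCP reads.

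Their share of reads was lower in BCP, with a BCP over sham ratio of 0.855 (0.795 to 0.920), while circRNAs under 100 kb had 1.00 (0.993 to 1.01). The ratio declined across bands of span, though the intervals of neighbouring bands overlap from 10 kb upward. It was 1.10 (1.08 to 1.13) up to 1 kb, 1.04 (1.02 to 1.05) from 1 to 10 kb, 0.957 (0.944 to 0.971) from 10 to 50 kb, and 0.917 (0.882 to 0.953) from 50 to under 100 kb. From 100 to under 150 kb it was 0.865 (0.793 to 0.944), and from 150 to 200 kb 0.832 (0.725 to 0.954). Long circRNAs with under 20 reads had 1170 sham and 587 BCP reads, a ratio of 0.719 (0.650 to 0.795), against 0.990 (0.973 to 1.01) for shorter circRNAs with under 20 reads. Long circRNAs with at least 20 reads had a ratio of 1.06 (0.950 to 1.18), against 1.01 (0.997 to 1.02) for shorter ones. At that cut the ratio did not decline into the long bands. It was 0.938 from 50 to under 100 kb, 1.07 from 100 to under 150 kb and 1.04 from 150 to 200 kb. Among long circRNAs with at least 20 reads the share was thus not lower in BCP beyond counting error. With reads in both libraries the ratio was 0.995 (0.910 to 1.09) for long and 1.04 (1.03 to 1.05) for shorter circRNAs. Asking for reads in both removes those listed at 0 in either library, more of them in BCP, so these values are a description and support nothing. Sham was also the deeper library, and the part of depth in these ratios was not tested.

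**Figure D1:**
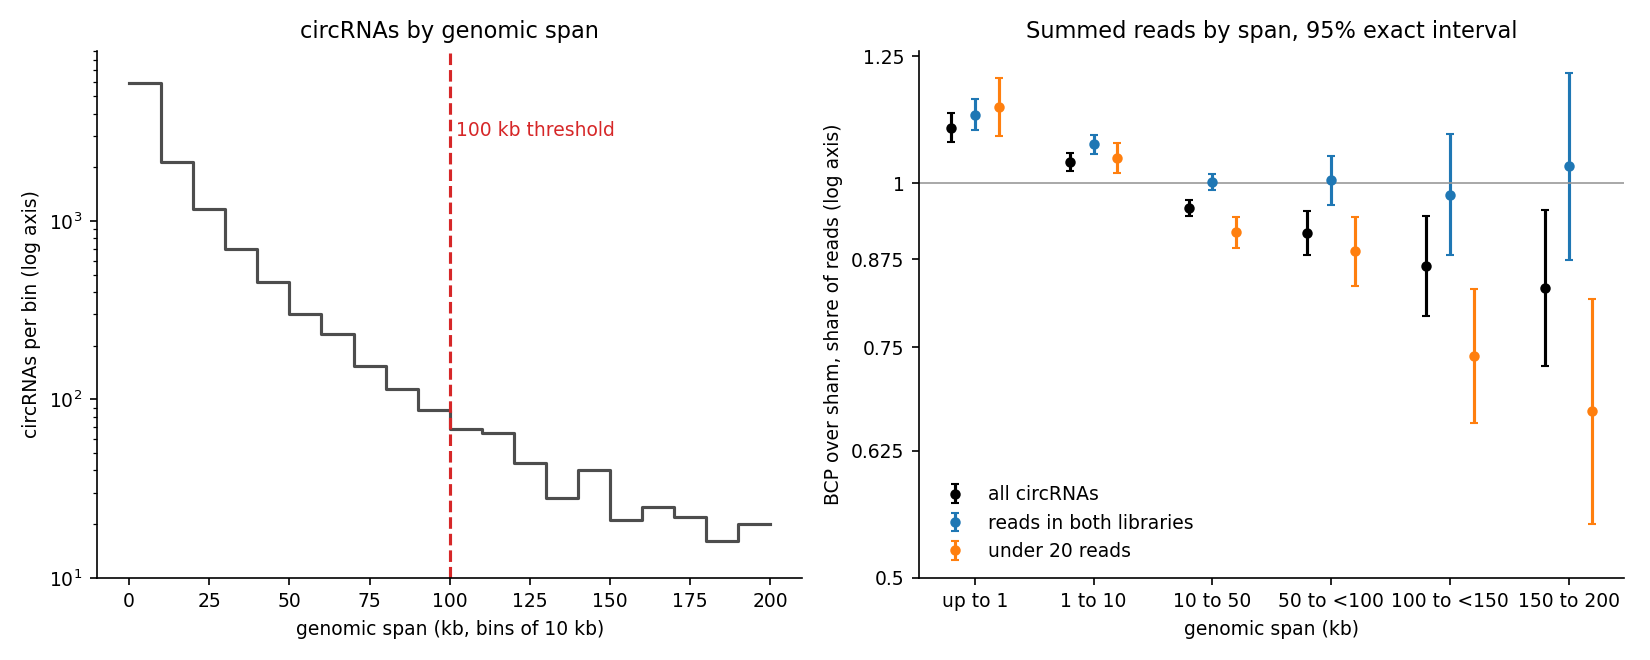
Left, number of circRNAs per 10 kb of genomic span (log axis), with the 100 kb threshold as a dashed line. Right, BCP over sham ratio of the summed share of reads by span (log axis), for all circRNAs, those with reads in both libraries and those with under 20 reads. Bars are 95% exact intervals for counting error. The ratio of all circRNAs declined from 1.10 in the shortest band to 0.832 in the longest, and that of long circRNAs with reads in both libraries, which leaves out those listed at 0 in either, was within counting error of 1.

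By chromosome, the ratio of the long circRNAs' reads was below 1 on 11 of 20 chromosomes, with a range of 0.297 to 1.40 and no test of the differences. The highest, on chromosome 6, includes the pair of unnamed circRNAs with 50 and 24 reads in BCP and 0 in sham.

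Both libraries listed 109 of the 349 long circRNAs (31.2%), against 41.5% of the others. Sham alone listed 164 (47.0%, against 36.1% of the others) and BCP alone 76 (21.8%, against 22.4%). In all, 273 long circRNAs were listed in sham and 185 in BCP. With sham reads thinned to the depth of BCP, 219.3 would be listed in sham on average (62.8% of the 349, computed without drawing), against the 53.0% listed in BCP. For the shorter circRNAs the same figures were 65.7% and 63.9%. With 6 to 9 reads, 56.6% of long and 61.0% of shorter circRNAs were listed in both libraries, and with 10 to 19 reads 86.8% and 89.5%. With at least 20 reads the figures lay further apart, at 22 of 28 (78.6%) and 1700 of 1772 (95.9%). The other 6 of the 28 stood in 1 library alone, 3 in each.

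Most long circRNAs used a back-splice site that another circRNA of the table also used. Of 349, 292 (83.7%) shared a start or an end, against 59.1% of the others, and 124 (35.5%) shared both, against 16.0%. This held in every band of reads: 78.6% against 51.0% with 2 to 3 reads, and 92.9% against 73.1% with at least 20. It was not particular to spans of 100 kb, since circRNAs of 50 to under 100 kb shared a site in 84.0% and those of 10 to 50 kb in 71.8%. CircRNAs of a locus share their sites and are not independent of each other, so these shares are given as counts with no test. Long circRNAs used 608 sites, and shorter circRNAs also used 304 of them. At 218 of these 304 the shorter circRNAs had more reads. At least 1 other circRNA lay wholly inside 295 of the 349, with a median of 3 and at most 30.

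**Figure D2:**
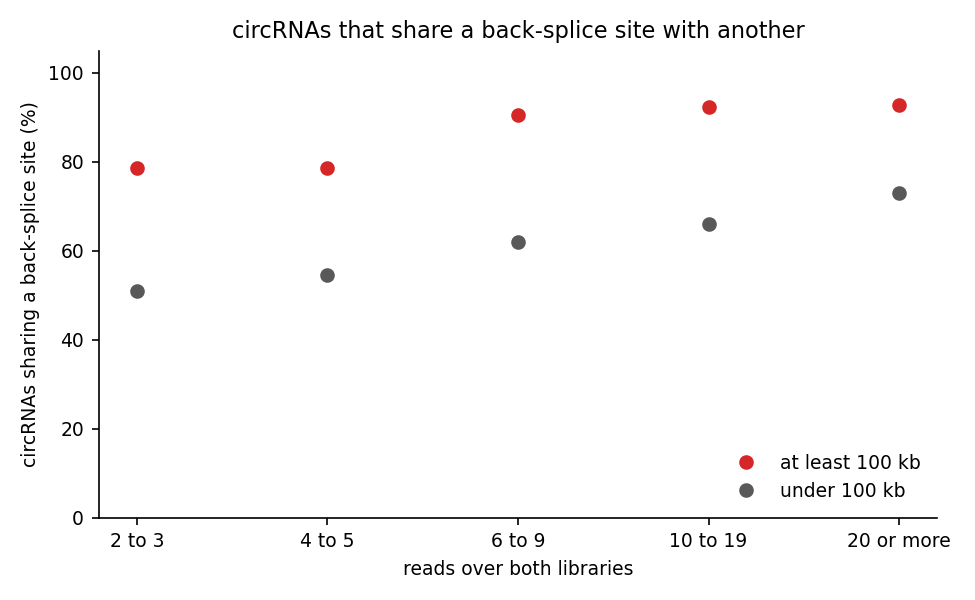
Percent of circRNAs that share their start or end with another circRNA of the table, by reads over both libraries, for circRNAs of at least 100 kb and under 100 kb. In each band the point for long circRNAs lies above that for shorter ones, from 78.6% against 51.0% to 92.9% against 73.1%.

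A single host name remained for 229 long circRNAs (65.6%), against 86.9% of the others. After names were dropped as set out below, 118 had none and 2 had several. A name was dropped for 162 long circRNAs (46.4%), against 20.6% of the others, and its part in this gap was not tested. The named ones came from 142 genes, of which 100 hosted 1 long circRNA each and 24 hosted at least 3. These genes hosted a median of 6 circRNAs of any span, and long ones held a median of 10.6% of a gene's reads. In 9 of the 142 every listed circRNA was long, but all of these except Sgms1 had a single circRNA in the table. In these 142 genes the long circRNAs' share of reads was 7.95% in sham (7.52 to 8.39%) and 7.21% in BCP (6.70 to 7.75%). The reads of their shorter circRNAs were also lower in BCP, with a ratio of 0.906 (0.882 to 0.931), against 0.815 (0.741 to 0.896) for the long ones. Of the 118 without a name, 24 shared a site with a circRNA of a named host and 74 overlapped no named circRNA. A named long circRNA seldom enclosed circRNAs of another gene: 1 of 229 did, a circRNA of Yeats2 with 4 sham reads that enclosed circRNAs of Abcc5 and Parl.

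The long circRNA with most reads had no host name. It lay at chr17:19160994-19321551 (build rn6) and had 81 reads in sham and 55 in BCP, or 717 and 698 CPM (reads scaled to the library total). The BCP over sham ratio of 0.974 (0.678 to 1.39) showed no difference beyond counting error. It shared its start with 3 shorter circRNAs, which had 35 and 4 reads together. Its span also overlapped at least 1 circRNA of Atxn1.

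Sergef, a gene for a guanine nucleotide exchange factor linked to secretion, hosted the next (chr1:102527975-102660697), with 73 sham and 55 BCP reads and a ratio of 1.08 (0.747 to 1.55). Its end at 102660697 was used by 10 circRNAs of Sergef with spans from 1803 to 157433 bp, 3 of them long. The long ones held 31.6% of the gene's sham reads (26.0 to 37.5%) and 30.2% of its BCP reads (24.0 to 37.0%), a share that did not differ beyond counting error.

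Sgms1, the gene of a sphingomyelin synthase, hosted 3 circRNAs, all long, and all with their end at chr1:250919167. The circRNA starting at 250785012 had 63 sham and 28 BCP reads (ratio 0.637, 0.393 to 1.01), and the circRNA starting at 250810170 had 29 and 30 (1.48, 0.860 to 2.56). Both intervals included 1. Summed over the gene, 94 and 60 reads gave a ratio of 0.915 (0.651 to 1.28). An unnamed circRNA with 32 and 22 reads (chr4:58367537-58485447) was also among the 10 with most reads, and its ratio of 0.986 (0.546 to 1.75) lay close to 1.

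Ssbp2, which encodes a single-stranded DNA binding protein, showed a different make-up. Its site at chr2:20507150 was the start of 9 circRNAs, 5 of them long. A shorter circRNA of 24295 bp held 2842 sham and 1708 BCP reads there, while the 5 long ones had 15 and 32. Nearly all of the latter came from the circRNA ending at 20626804, with 0 reads in sham and 29 in BCP. The other 4 had few reads: the circRNA ending at 20649110 had 8 in sham and 0 in BCP, and that ending at 20674691 had 2 and 3. Long circRNAs made up 0.487% of the locus's reads in sham (0.273 to 0.801%) and 1.72% in BCP (1.18 to 2.41%).

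**Figure D3:**
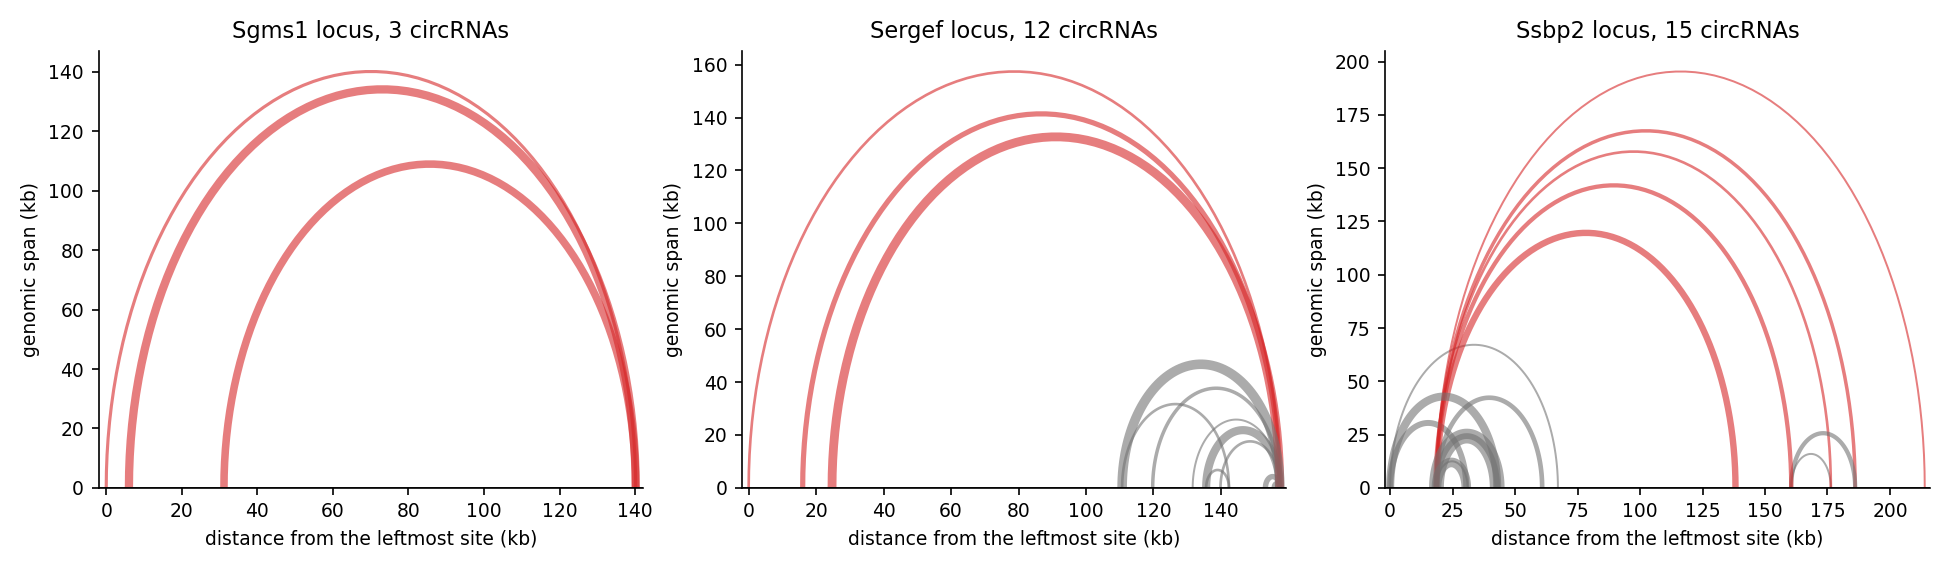
CircRNAs at 3 loci, drawn as arcs between their back-splice sites. The x axis is the distance from the leftmost site in kb, the height of an arc is its span in kb, and line width grows with the log2 of its reads over both libraries. Red arcs span at least 100 kb and grey arcs less. At Sgms1 and Sergef the long arcs meet at 1 shared end, and at Ssbp2 at 1 shared start.

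**Figure D4:**
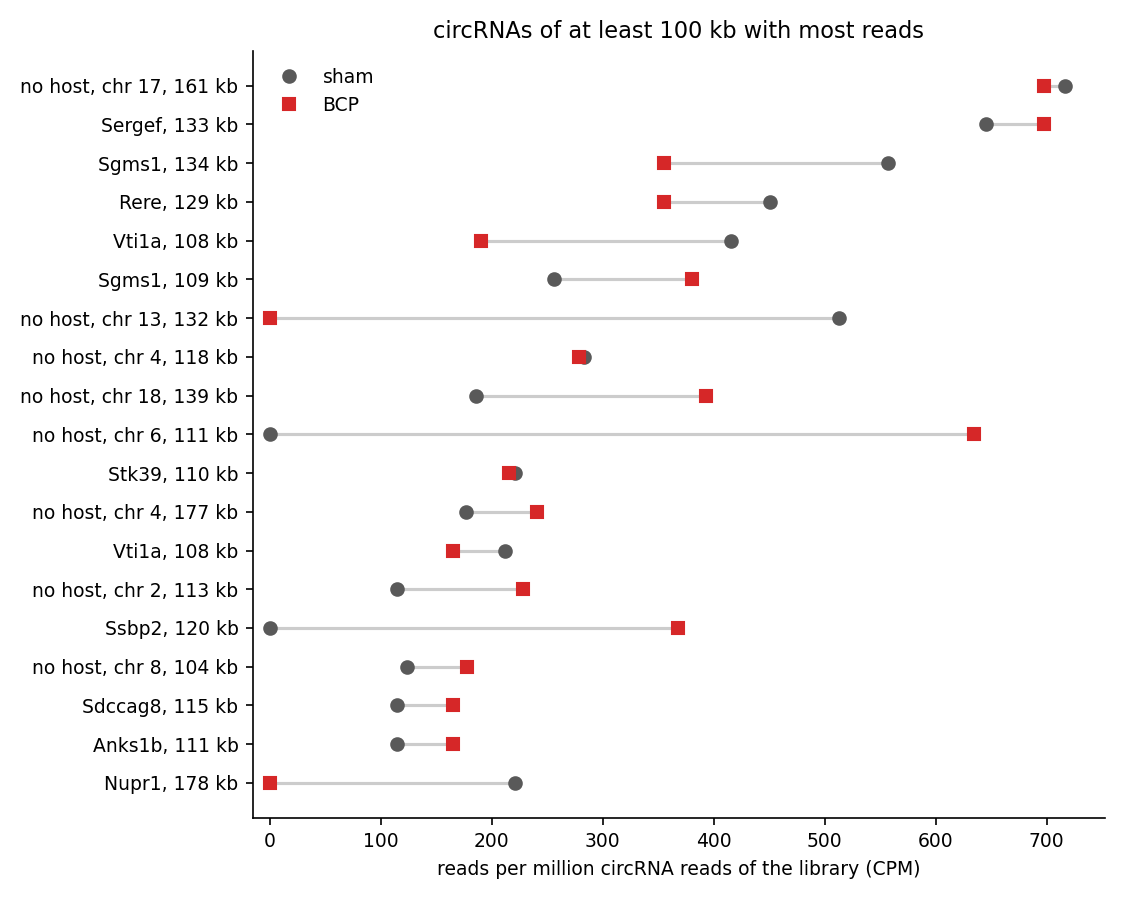
CPM (reads scaled to the library total) in sham (circles) and BCP (squares) of 19 of the 20 long circRNAs with most reads, ordered by raw reads over both libraries and labelled by host or chromosome and by span. The top 2 shown lie close together in both libraries, while 4 of the 19 are listed at 0 in 1 library.

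The design sets BCP against sham. The size rule asked for at least 10 reads over both libraries, a ratio of at least 2-fold, and an interval that excluded 1. Of the 349 long circRNAs 81 had enough reads. By this rule 6 were higher in BCP (7.41% of 81, background 7.82% over all 3502 tested circRNAs) and 14 were lower (17.3%, background 7.34%). The share of higher ones was near the background and that of lower ones above it. Of the 20 called, 13 were listed at 0 in the other library, so they reached 10 reads through 1 library alone. Those of Shank2, Msi2, Mapkap1, Asph and Atrnl1, given below, also had at least 10 reads only in the library where they were higher. Sham was the deeper library, so these shares are a description and support nothing. Among the 68 with reads in both libraries, 2 were higher (background 5.86%) and 5 lower (background 2.56%). The median log2 ratio was -0.11 over the 81, with 51 below 0 and 30 above, beside 0.02 over all tested circRNAs. With at least 20 reads the median of the long circRNAs turned to 0.049.

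The 6 higher ones lay at 5 loci. A circRNA without a host name at chr6:141147178-141258469 had 50 BCP reads and was listed at 0 in sham. Another that enclosed it (chr6:141136031-141291226) had 24 BCP reads and 0 in sham. Ssbp2 had the circRNA with 29 reads given above. Atrnl1, an attractin-like gene, had a circRNA at chr1:278580846-278749829 with 6 and 17 reads (4.06-fold, 1.53 to 12.6). It shared its start with 6 other circRNAs and its end with 6. An unnamed circRNA at chr18:81289815-81428974 had 21 reads in sham and 31 in BCP, 2.12-fold higher (1.18 to 3.88). It did not meet the rule under median-of-ratios or TMM scaling. The last, also unnamed (chr1:124198499-124300117), had 10 reads in BCP and 0 in sham.

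Of the 14 lower ones, 7 had a host name. Vti1a, which encodes a SNARE protein of vesicle transport, had a circRNA at chr1:276379763-276487666 with 47 and 15 reads (2.19-fold lower, 1.20 to 4.21). A second Vti1a circRNA differed from it only in an end at 276487677 and had 24 and 13 reads. Merged, they had 71 and 28 reads and were 1.77-fold lower (1.13 to 2.85), which did not meet the rule. The postsynaptic scaffold gene Shank2 (chr1:217459831-217565160) had 18 and 2 reads (6.28-fold lower, 1.503 to 55.8). The RNA-binding protein gene Msi2, a Musashi family member, had 16 and 3 reads (3.72-fold lower, 1.06 to 19.9), and this was its sole circRNA in the table. Mapkap1, a subunit gene of the kinase complex mTORC2, had 14 and 2 reads (4.88-fold lower, 1.12 to 44.3). Asph, an aspartyl hydroxylase gene, had 13 and 2 (4.53-fold lower, 1.03 to 41.4). Each of these intervals was wide, since the BCP counts were 2 or 3 reads in 4 of the 5.

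The other 9 lower ones were all listed at 0 in BCP. The largest count, 58 sham reads, was of an unnamed circRNA at chr13:109457218-109588736. It shared its start with a circRNA of Rps6kc1 and enclosed circRNAs of 4 genes, Angel2, Mfsd7b, Rps6kc1 and Vash2. Mipol1 had 21 reads (chr6:78297628-78410880). A circRNA given to Nupr1 had 25 (chr1:195665691-195843637), but circRNAs with that name are spread far apart on the chromosome, so the host is doubtful. The remaining 6 were unnamed, with 11 to 17 sham reads, and included a pair on chromosome 9 (8289180 to 8421978 and 8362617 to 8476448) whose spans overlap, with 14 and 13 reads.

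**Figure D5:**
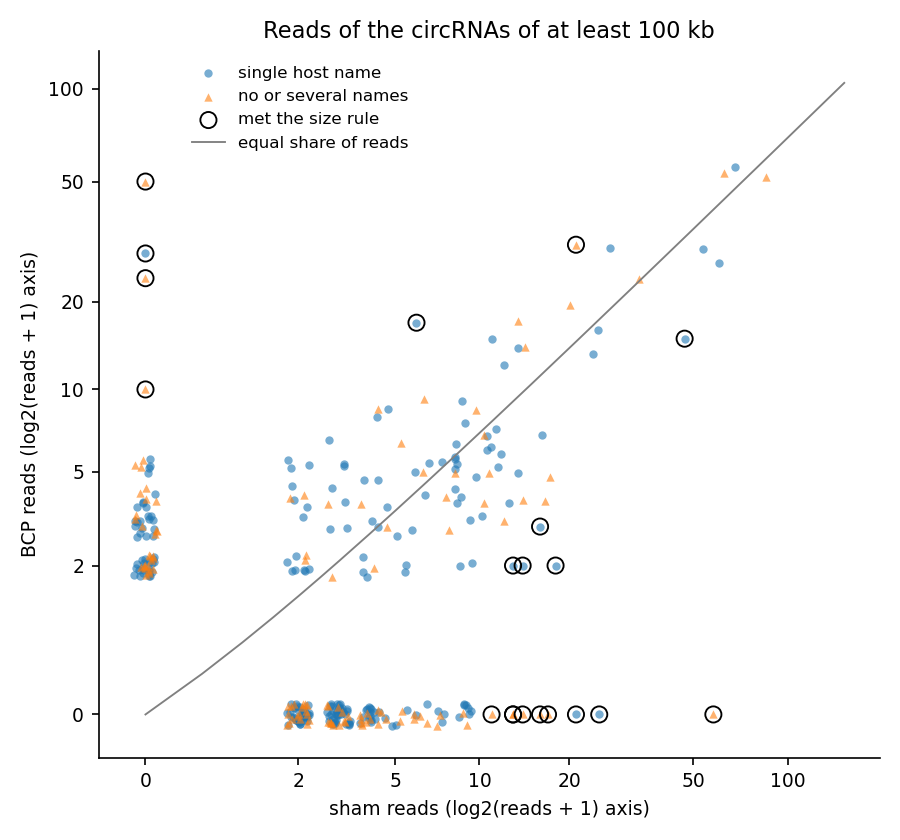
Sham against BCP reads of the 349 long circRNAs, on log2(reads + 1) axes. Circles have a single host name and triangles none or several, points that did not meet the size rule are jittered, and rings mark the 20 that met it. The line marks an equal share of the reads of each library. Of the 20 ringed, 13 lie on an axis, with 0 reads in 1 library.

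Host genes with at least 3 long circRNAs came next. Rims2, a gene of the presynaptic active zone, had most, with 8 of its 48 circRNAs long. Those 8 had 42 and 19 reads (ratio 0.649, 0.356 to 1.14), and 5 of them ended at chr7:78520474. The kinase gene Stk39, which regulates chloride cotransporters, had 6 with 49 and 39 reads (1.14, 0.730 to 1.77). Psd3, an exchange factor gene for the GTPase Arf6, had 5 with 25 and 10 reads (0.574, 0.246 to 1.24). Each of these intervals included 1. The 4 long circRNAs of Vti1a held 67.7% of its reads, with 78 and 35 (0.643, 0.419 to 0.970). The 4 of Atrnl1 had 13 and 21 reads (2.32, 1.11 to 5.03), and 17 of the 21 came from the circRNA named above. Mctp1, a gene of a calcium-binding membrane protein, had 3 with 24 and 13 reads (0.777, 0.363 to 1.59). The 4 of Ccdc148 had 23 and 11 reads (0.686, 0.302 to 1.46).

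By the role of the host, 126 of the 229 named long circRNAs fell in at least 1 of the gene lists used, and lists overlap in some genes. The background for each list is that of all tested circRNAs, 7.82% higher and 7.34% lower by the size rule. Genes of cell adhesion and synaptic organisers hosted 22 from 15 genes, with 64 and 45 reads (ratio 1.01, 0.673 to 1.499). The 5 circRNAs of Magi2, a synaptic scaffold of the membrane, had 19 and 13 reads. Only 1 circRNA of this list had enough reads to be tested, and it did not meet the rule. Presynaptic release genes hosted 12 from 4 genes with 49 and 29 reads (0.849, 0.517 to 1.37), of which 8 were those of Rims2, and 0 of 3 tested met the rule.

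Postsynaptic scaffold genes hosted 8 long circRNAs with 67 and 24 reads, a ratio of 0.514 (0.308 to 0.830). Of 3 tested, 1 was lower (Shank2) and 0 higher, beside a background of 7.34% lower and 7.82% higher. Shank2 reached 10 reads through sham alone. This was 1 of many lists looked at, and 3 tested circRNAs are too few to read a change from. The ratio also depends on which genes the list holds. The synaptic scaffold gene Magi2 was counted with the adhesion genes and not here. Its 5 long circRNAs had 19 and 13 reads (0.981, 0.445 to 2.09). Dlg2, the gene of the scaffold PSD-93, had 14 and 5 reads for its most abundant long circRNA, and Anks1b had 13 and 13. The median log2 ratio of the 3 was -0.88. Gphn, the gephyrin gene of inhibitory synapses, had 9 reads in sham and 0 in BCP. Neurotransmitter receptor genes hosted 10 with 37 and 15 reads (0.581, 0.296 to 1.08). The kainate receptor gene Grik2 had 5 of them (16 and 4 reads). Of 2 tested, 0 met the rule. Ion channel genes hosted 7 with 26 and 10 reads (0.551, 0.237 to 1.18), among them 3 of the auxiliary calcium channel subunit gene Cacna2d3 (10 and 8) and 2 of the L-type channel gene Cacna1d (11 and 2). None of the 7 had enough reads to be tested.

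Genes of MAPK and growth factor signalling hosted 12 from 4 genes, among them Stk39 and Rps6ka5, with 77 and 48 reads (0.894, 0.610 to 1.30). Of 5 tested, 0 met the rule, and their median log2 ratio was -0.02. This list follows the pathway named by the series title. Other kinases and second messengers had 9 long circRNAs (18 and 10 reads), with 0 tested. Transcription factors and chromatin regulators hosted 16 from 12 genes with 107 and 58 reads (0.777, 0.555 to 1.08). Rere, a transcriptional corepressor gene of the atrophin family, held 51 and 28 of these in 1 circRNA (chr5:167486001-167615430). The chromatin remodelling ATPase gene Smarca2 had 20 and 10 in 3, and the transcription factor gene Nfib 11 and 7 in 2. Of 4 tested, 0 met the rule. RNA-binding protein genes had 3 long circRNAs (19 and 6 reads), with Msi2, which reached 10 reads through sham alone, as the 1 tested and lower. Cytoskeleton and cilium genes had 6 (25 and 11 reads), led by Dock3 (11 and 6), a guanine nucleotide exchange factor gene of neurons. Across the lists given so far, long circRNAs were 2.52% (cytoskeleton and cilium) to 11.4% (neurotransmitter receptors) of a list's circRNAs. They were 7.97% for adhesion, 7.79% for presynaptic and 5.58% for MAPK genes, against 3.01% over the whole table. These shares were not tested.

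The remaining lists, except that of conserved circRNA hosts, held few circRNAs of any span or few long ones. The long share over the whole table was 3.01%. Axon guidance genes had 2 of 64 (3 and 3 reads), ubiquitin and trafficking genes 1 of 195 (4 and 0 reads, Fbxl17), and metabolism and transport genes 3 of 156 (13 and 5). Oligodendrocyte genes had 1 of 31 (Tmeff2, 2 and 0 reads), astrocyte genes 1 of 38 (the bicarbonate transporter gene Slc4a4, 9 and 0), and neuron genes 1 of 13 (the vesicle fusion gene Snap25, 2 and 0). Microglia and macrophage genes had 0 of 7, vessel genes 0 of 20, and Schwann cell and ganglion neuron genes 0 of 4, too few circRNAs to read anything from the zeros. The skeletal muscle list hosted 0 circRNAs of any span. Conserved circRNA hosts had 30 of 310 (9.68%), from 7 genes (197 and 151 reads, ratio 1.10, 0.883 to 1.37). Of 12 tested, 2 were higher (Ssbp2 and Atrnl1) and 0 lower, beside a background of 7.82% higher and 7.34% lower. Both Ssbp2 and Atrnl1 had at least 10 reads in BCP alone. The median log2 ratio of the 12 was 0.02, the same as over all tested circRNAs.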

How the data were processed

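The authors deposited back-splice junction counts per circRNA and columns headed TPM, which from the values are CPM: the deposited CPM equal each count scaled to the column total, with 0 written as 0.001. The tools CASAVA 1.8 and BWA and the build rn6 come from the submitters' processing notes. Sources used here name no circRNA caller, minimum of reads or annotation. Per the labels' protocols, ribosomal RNA was removed and RNase R (16 units, 15 min) was used against linear RNA, so values describe circRNAs and not the linear RNA of their hosts.

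The log2 ratio used a pseudocount of 0.5 reads. The size rule was computed on every circRNA (edgeR and DESeq2 served for alternative scaling only: edgeR 4.0.16, DESeq2 1.42.0, Python 3.11.15, scipy 1.17.1). It was also run on simulated counts with counting error alone, which cannot show how it behaves under variation between libraries. Host names exclude 58 small RNA family names and 11 others that spread over more than 3 Mb. Of 142 host names of long circRNAs, 141 matched a symbol or synonym in RefSeq's GRCr8 gene table, used for names only.

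Members and lists were chosen with earlier results of these data known. The text names the 10 long circRNAs with most reads, all that met the size rule, the 5 widest, the 3 on each side of the threshold, host genes with at least 3 long circRNAs (up to 12 by reads), and up to 2 per gene list. Others were named after their values were seen. A few entries within this rule are not reported here. Sequences of these regions were not used here.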

Additional observations from a re-analysis of the deposited data

How the results depend on the processing

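Depth limits most values here: 268 of 349 long circRNAs had under 10 reads. All log2 ratios shifted by -0.10 under median-of-ratios scaling and by -0.12 under TMM. The ratio of the long circRNAs' summed reads was 0.855, and became 0.789 with TMM scaling, when the ratio of shorter circRNAs was 0.924. Planned restriction to members with reads in both libraries gave 0.995. Settings chosen after seeing the data gave 1.06 (at least 20 reads, a reversed direction), 0.719 (under 20 reads) and 0.780 (without the 3 members with at least 20 reads listed in BCP alone). Without the 3 such members listed in sham alone it was 0.904. Leaving out members of 1 library can move the ratio in 1 direction only, so 0.780 and 0.904 are a description and support nothing. The median log2 ratio of -0.11 turned to 0.049 with at least 20 reads. The 6 higher calls became 13 with at least 5 reads and 2 with a span of at least 150000 bp, with reads in both libraries, or with a single host name. The 14 lower calls became 28 with at least 5 reads, 5 with at least 20 reads, 3 with a span of at least 150000 bp, 5 with reads in both libraries and 7 with a single host name. The share listed in both libraries, 31.2%, was 26.0% from 150000 bp and 84.0% with at least 10 reads. The 349 members were 104 from 150000 bp and 81 with at least 10 reads. Fewer members enter these restricted counts by construction. In the remaining 33 recomputed values, counts stayed within 1.5 times and other values within the interval of the main value. No paired analysis was possible because each group had 1 library.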

Other observations

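Some genes had long circRNAs listed in 1 library alone although their shorter circRNAs were listed in both. These genes were chosen after their values were seen. The 3 long circRNAs of Mipol1 had 33 sham and 0 BCP reads, and its shorter ones had 62 and 36. Sh3kbp1, an adaptor gene of receptor endocytosis, had 3 long circRNAs with 0 sham and 9 BCP reads, and shorter ones with 41 and 18. The 3 long circRNAs of the tyrosine kinase gene Fer had 0 and 7 reads, and the shorter ones 18 and 35. None of the long circRNAs of Sh3kbp1 or Fer had enough reads for the size rule. With 2 reads as the smallest count, a circRNA with 2 or 3 reads cannot be listed in both libraries. This was so for all long circRNAs of Fer, and for those of Sh3kbp1 except 1 with 5 reads. Their listing in 1 library alone therefore supports nothing.

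Both ends of 12 long circRNAs lay within 20 bp of those of another in the table, as 6 pairs: 2 of Vti1a, and 1 each of Psd3, Ppm1h, Tasp1 and an unnamed region of chromosome 16. In 9 of the 142 host genes, all listed circRNAs were long, led by Sgms1 (154 reads) and Msi2 (19 reads). Of these genes only Sgms1 had more than 1 circRNA in the table.

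The neighbourhood of the unnamed circRNAs on chromosome 6 with 50 and 24 BCP reads held a shorter one (141246683 to 141258469) that shares the end of the first. It had 4 BCP reads, so all 3 were listed at 0 in sham.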
